A study of Mus musculus with 6 samples.

Results

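The 10 genes described here encode the machinery by which a heart muscle cell stores, releases and recovers calcium: the uptake pump Atp2a2 with its inhibitors Pln and Sln, the release channel Ryr2 with its junctional partners Jph2 and Trdn, the luminal buffers Casq2, Casq1 and Hrc, and the sodium-calcium exchanger Slc8a1. They were taken by name, and every probe whose annotation gave 1 of these genes was read, which came to 23 of the 45281 probes on an Illumina mouse bead array. Expression was profiled in left ventricle RNA from mice lacking the histone H3K9 demethylase Kdm3a and from wild-type mice, after transverse aortic constriction (TAC), a band on the aorta that overloads the left ventricle, or after sham surgery. The groups were Kdm3a-KO with TAC (KO TAC, n = 2 arrays), Kdm3a-KO with sham surgery (KO Sham, n = 1), wild type with TAC (WT TAC, n = 2) and wild type with sham surgery (WT Sham, n = 1). All were labelled as adult male c57/BL6 mice, operated on at 6 to 8 weeks of age, with hearts taken 3 weeks after surgery. The knockout is global rather than restricted to heart muscle. The study's text gives a longer interval after TAC. It describes both a mixed-background knockout line and a separate one in C57/Bl6J, and does not say which of them was hybridised. The question was how these genes differ between genotypes under pressure overload.

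At each heartbeat a small entry of calcium through the surface membrane opens the ryanodine receptor Ryr2 in the sarcoplasmic reticulum (SR), and the released calcium triggers contraction. The SERCA pump Atp2a2 then returns most of it to the SR, with phospholamban (Pln) as its brake, while the exchanger Slc8a1 carries the rest out of the cell. Junctophilin-2 (Jph2) holds the SR against the T-tubule, and calsequestrin (Casq2) and the histidine-rich calcium-binding protein (Hrc) bind calcium inside the SR. Lower SERCA activity and disordered junctions are well-known features of failing hearts.

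Of the 23 probes, 11 were above background on all 6 arrays and 8 on none. Above background means a deposited intensity over the 99th percentile of 1545 olfactory, vomeronasal and taste receptor probes on the same array, a level between 149.0 and 155.1. The 13 probes that passed on at least 2 arrays covered 7 of the 10 genes, and each gene was represented by its brightest such probe. Sln, Casq1 and Trdn had no probe that passed and were not tested. An intensity depends on the probe as well as on the RNA, so levels are compared between arrays for 1 probe and never between genes. In bulk tissue, fewer cells of a type and less RNA per cell cannot be told apart.

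The 2 arrays of wild-type TAC hearts differed most from the rest. They correlated with each other at 0.993, and with the other 4 arrays at 0.917 to 0.931, while those 4 correlated among themselves at 0.984 to 0.995. The Kdm3a probe with the widest contrast read 137 and 143 in KO TAC, 129 in KO Sham, 296 and 264 in WT TAC and 292 in WT Sham, below background in every KO array, so the genotype labels held at this probe. Another 2 Kdm3a probes stayed above background in KO, and KO TAC was lower than WT TAC there by 0.44 and 0.72 on the log2 scale. No label says whether the arrays of a group came from different animals. A p-value here therefore weighs a difference only against the scatter of arrays, which may be technical.

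The promoters of Hrc, Jph2 and Pln, the members that passed the test between genotypes after TAC, are shown with that of Casq2, a member that did not. Each is the stretch of 250 bases before the transcription start in RefSeq on build GRCm38.p6, 5′ to 3′ on the gene's strand. The windows are Hrc chr7:45335019-45335268 (plus strand), Jph2 chr2:163397994-163398243 (minus), Pln chr10:53337436-53337685 (plus) and Casq2 chr3:102086165-102086414 (plus). Capitals mark matches, on either strand, to 6 motifs known from muscle and general promoters: the E-box CANNTG, the GATA motif AGATAA, the TATA motif TATAAA, the M-CAT motif CATTCC, the MEF2 site and the CArG box.
Hrc: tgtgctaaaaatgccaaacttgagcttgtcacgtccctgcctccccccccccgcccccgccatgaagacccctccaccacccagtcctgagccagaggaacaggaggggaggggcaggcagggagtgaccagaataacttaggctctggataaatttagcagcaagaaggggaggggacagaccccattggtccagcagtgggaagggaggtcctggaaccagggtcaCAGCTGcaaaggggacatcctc
Jph2: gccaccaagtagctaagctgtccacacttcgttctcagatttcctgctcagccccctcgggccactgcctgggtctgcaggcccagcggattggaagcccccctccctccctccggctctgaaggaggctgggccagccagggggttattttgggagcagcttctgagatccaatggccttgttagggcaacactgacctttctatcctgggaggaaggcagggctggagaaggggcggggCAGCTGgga
Pln: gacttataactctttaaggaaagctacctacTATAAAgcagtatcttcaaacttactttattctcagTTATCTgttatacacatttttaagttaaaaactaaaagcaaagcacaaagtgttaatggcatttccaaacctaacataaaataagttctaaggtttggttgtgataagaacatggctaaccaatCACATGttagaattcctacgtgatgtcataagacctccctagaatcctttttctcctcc
Casq2: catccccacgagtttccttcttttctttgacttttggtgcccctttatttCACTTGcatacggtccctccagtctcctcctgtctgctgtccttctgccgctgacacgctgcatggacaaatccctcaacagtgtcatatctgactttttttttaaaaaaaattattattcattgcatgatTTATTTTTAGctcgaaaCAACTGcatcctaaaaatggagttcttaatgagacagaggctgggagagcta
Each of the 4 windows held an E-box, which 66.2% of 32851 RefSeq windows of this length also held. Hrc had its E-box 22 to 17 bases before the start and Jph2 9 to 4 bases before it, and both read CAGCTG. Pln also held a GATA motif (9.99% of all windows) and a TATA motif (12.4%) 219 to 214 bases before its start. Casq2 held the only MEF2 site among the 7 member windows at hand (2.92% of all windows), and none of the 7 held an M-CAT motif or a CArG box. These matches describe letters in the window and were not tied to the expression values.

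After TAC, Hrc, Jph2 and Pln were higher in Kdm3a-KO than in wild-type ventricle, and no member was lower. Hrc was 2.54-fold higher, Jph2 1.74-fold and Pln 1.43-fold. The 3 calls among 7 members tested stand against 41% of all 9649 genes called in this comparison, and 21.5% called higher. The median member difference was 0.51 on the log2 scale, against 0.04 over all genes. In wild type, TAC lowered Hrc and Jph2 relative to the single WT Sham array, and in Kdm3a-KO no member passed the test between TAC and sham. Differences were tested with limma over all genes, with p-values adjusted by the Benjamini-Hochberg method, and are given on the log2 scale with their standard error.

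**Figure D1:**
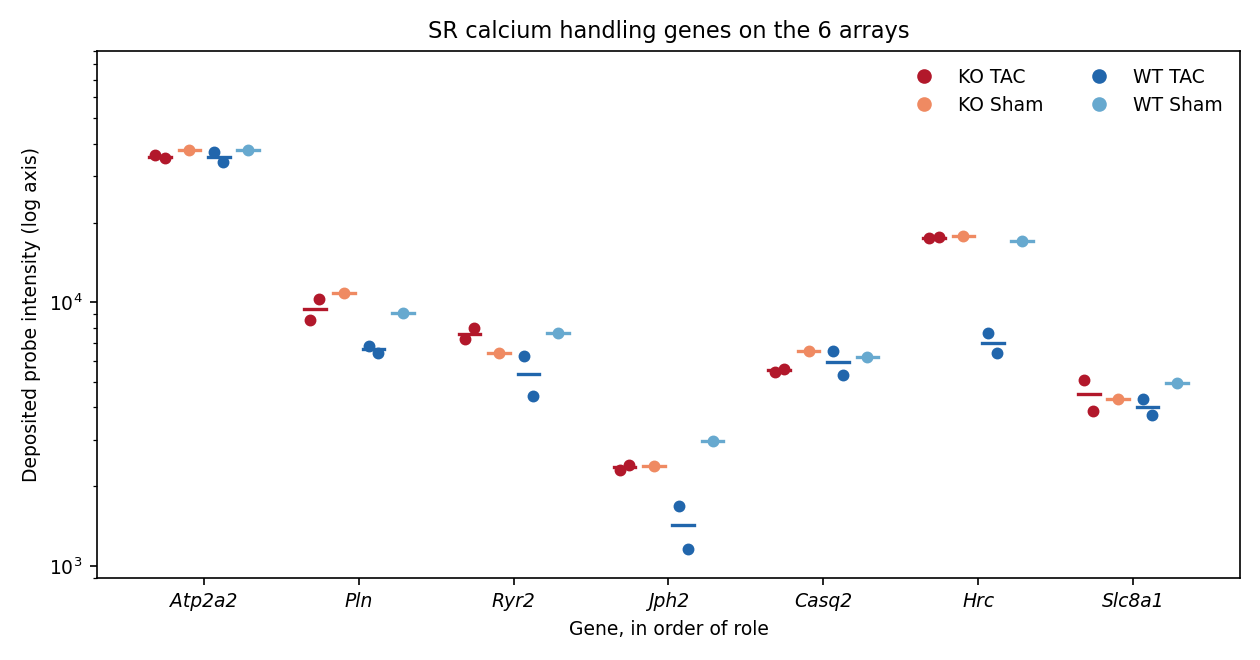
Deposited probe intensity (y axis, log scale) of the 7 measured genes, in the order of their roles (x axis). Each point is an array and each line a group mean, with KO TAC, KO Sham, WT TAC and WT Sham from left to right within a gene; heights of different genes are not comparable. For Hrc the 2 WT TAC arrays sit at 7623 and 6403, below all 4 other arrays.

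The uptake pump gave a reading that depended on the probe. The brightest probe of Atp2a2 (ILMN_1245425) read 36050.1 and 35113 in KO TAC and 37893 in KO Sham. It read 37023 and 34161 in WT TAC and 37710.4 in WT Sham, so the TAC groups overlapped. Its difference between KO TAC and WT TAC was 0.001 ± 0.135 (limma adjusted p = 0.998), with a 95% confidence interval of -0.32 to 0.32. This probe ranked 18th to 42nd brightest of the array's 45281 probes. Among probes of that brightness the arrays recorded small differences: the median absolute difference between KO TAC and WT TAC was 0.11 for the 65 probes above a mean intensity of 30000, of which 1.54% were called, against 0.37 for the 2174 probes between 1000 and 3000.

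The dimmest Atp2a2 probe that passed (ILMN_2450031, annotated to the transcript AK081191) lay in that lower range. It read 2666 and 2696 in KO TAC, 2708 in KO Sham, 1694 and 1420.0 in WT TAC, and 2181 in WT Sham. Both WT TAC arrays were below all others. In a fit over all 16691 probes it was higher in KO TAC than in WT TAC by 0.83 ± 0.16 (limma adjusted p = 0.00670). A further probe (ILMN_1239742), with 32786 and 32598 in KO TAC and 28647 and 24046 in WT TAC, lay between them at 0.32 ± 0.15 (limma adjusted p = 0.146). Which part of the gene each probe reads was not analysed here. The remaining Atp2a2 probe was below background on all 6 arrays.

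Pln, the brake on the pump, read 8593 and 10277 in KO TAC and 10814 in KO Sham. It read 6837 and 6415 in WT TAC and 9139 in WT Sham, so the WT TAC arrays were the lowest of the 6. Pln was higher in KO TAC than in WT TAC by 0.51 ± 0.15 (limma adjusted p = 0.0349). The call was lost without WT TAC replicate 1, WT TAC replicate 2 or KO TAC replicate 2 (limma adjusted p = 0.0988, 0.158 and 0.141 in that order), with the difference at 0.56, 0.46 and 0.38. Relative to WT Sham, WT TAC differed by -0.47 ± 0.19, which did not pass (limma adjusted p = 0.0983).

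The change in Pln relative to Atp2a2, which bears on how strongly the pump is braked, took its sign from the Atp2a2 probe. Relative to the brightest Atp2a2 probe, Pln was higher in KO TAC than in WT TAC by 0.51, and relative to ILMN_1239742 by 0.19 with the TAC groups overlapping. Relative to ILMN_2450031 the difference was -0.32. Over the brightest probe, which lies where the arrays recorded small differences, the value is nearly that of Pln itself.

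Sarcolipin (Sln), the pump inhibitor typical of atrium and skeletal muscle, stayed near background. Its first probe read 112 to 119.6 on the 6 arrays. Its second read 119 and 120.2 in KO TAC, 134 in KO Sham, 124 and 156 in WT TAC and 126 in WT Sham, and only WT TAC replicate 2 was above background. Of 7 atrial myocyte markers, Bmp10, Myl7 and Nr2f2 were below background on all arrays. The other 4 were above it on all 6 arrays and differed between KO TAC and WT TAC, with Stard10 (1.93) and Gja5 (0.80) higher and Dkk3 (-3.61) and Myl4 (-1.41) lower. In this comparison 41% of all genes were called.

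Among the release genes, Jph2 differed and Ryr2 missed the threshold. The brightest Jph2 probe (ILMN_2438153) read 2307 and 2417 in KO TAC and 2393 in KO Sham. It read 1689 and 1162 in WT TAC, the lowest arrays, and 2974 in WT Sham, the highest. Jph2 was higher in KO TAC than in WT TAC by 0.80 ± 0.21 (limma adjusted p = 0.0224), and lower in WT TAC than in WT Sham by 1.15 ± 0.25 (limma adjusted p = 0.0172). The first call was lost without WT TAC replicate 2, where the difference was 0.51 (limma adjusted p = 0.100), or KO TAC replicate 2 (0.0546), and the second without WT TAC replicate 2 (0.0518). Neither of the 2 dimmer Jph2 probes passed between the TAC groups: ILMN_2628876 differed by 0.82 ± 0.30 (limma adjusted p = 0.0712) and ILMN_2628875 by 0.34 ± 0.21 (0.254). Relative to WT Sham, WT TAC differed by -0.85 ± 0.37 at ILMN_2628876 and by -0.68 ± 0.26 at ILMN_2628875, and neither was called.

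Ryr2, the release channel, read 7244 and 7972 in KO TAC and 6415 in KO Sham. It read 6250.1 and 4404 in WT TAC and 7664 in WT Sham. The TAC groups did not overlap, which was also true of 73.4% of all genes tested. The difference between KO TAC and WT TAC was 0.54 ± 0.20 with a 95% confidence interval of 0.07 to 1.01 (limma adjusted p = 0.0662). Without WT TAC replicate 1 it was 0.80 (limma adjusted p = 0.0317), and without WT TAC replicate 2 it was 0.29 (0.306). The other Ryr2 probe that passed the filter, ILMN_1242706, read 206 and 208 in KO TAC and 176 and 148 in WT TAC, the last below background, and was called higher at 0.87 ± 0.24 (limma adjusted p = 0.0265). Another 2 probes named for Ryr2 were below background on all arrays and 1 more was above it on a single array. Relative to WT Sham, Ryr2 in WT TAC differed by -0.56 ± 0.24, which did not pass (limma adjusted p = 0.124).

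Triadin (Trdn), which anchors calsequestrin to the release channel, had 1 probe, which read 112 to 123 on the 6 arrays and was above background on none. No level or difference is therefore given for it.

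**Figure D2:**
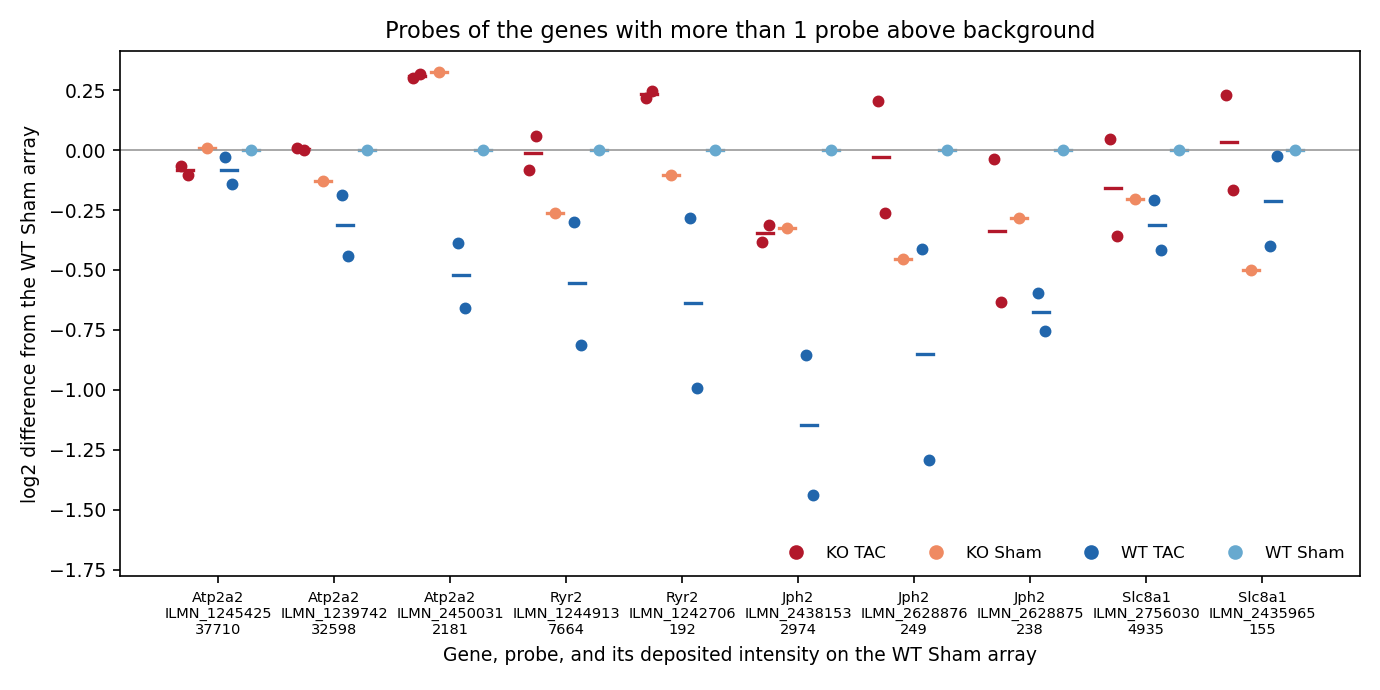
The 10 probes of Atp2a2, Ryr2, Jph2 and Slc8a1 that passed the filter (x axis, with each probe's intensity in WT Sham), as the log2 difference of each array from the WT Sham array (y axis). Points are arrays and lines group means; the brightest Atp2a2 probe spans the narrowest range, and ILMN_2450031 places both WT TAC arrays below WT Sham and both KO TAC arrays above it.

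The luminal genes split. Hrc, which binds calcium in the SR and also contacts the pump and triadin, read 17466 and 17715 in KO TAC and 17904 in KO Sham. It read 7623 and 6403 in WT TAC and 17064 in WT Sham. The 4 arrays other than WT TAC lay within 17064 and 17904. Hrc was higher in KO TAC than in WT TAC by 1.35 ± 0.15, with a 95% confidence interval of 0.99 to 1.70 (limma adjusted p = 0.000969), a signed difference above that of 97.0% of genes, in which genes far below 0 count as smaller. It was lower in WT TAC than in WT Sham by 1.30 ± 0.18 (limma adjusted p = 0.00364). Hrc has 1 probe, so no second reading bears on these values.

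Casq2, the main calcium buffer of the cardiac SR, showed no such pattern. It read 5450.4 and 5593 in KO TAC and 6537 in KO Sham, and 6533 and 5305 in WT TAC and 6224 in WT Sham. The TAC groups overlapped, and the difference was -0.09 ± 0.16 with a 95% confidence interval of -0.47 to 0.28 (limma adjusted p = 0.661). Casq1, the skeletal muscle form, read 118 and 118 in KO TAC, 119 in KO Sham, 132 and 126 in WT TAC and 129 in WT Sham, and was above background on no array. Of 11 skeletal muscle markers, 7 were below background on all arrays, among them Myh1, Myh4 and Actn3. The other 4 differed between KO TAC and WT TAC, with Ckm (1.44), Mylpf (0.70) and Tnni2, which was below background in WT TAC, higher and Mybpc2 (-1.95) lower. In this comparison 41% of all genes were called.

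Slc8a1, which removes calcium from the cell in exchange for sodium, read 5089 and 3874 in KO TAC and 4301 in KO Sham. It read 4291 and 3726 in WT TAC and 4935 in WT Sham. The TAC groups overlapped and the difference was 0.15 ± 0.18, with a 95% confidence interval of -0.28 to 0.59 (limma adjusted p = 0.528). The second probe that passed, ILMN_2435965, was above background on 3 arrays and differed by 0.25 ± 0.20 (limma adjusted p = 0.372), and the other 2 were below background on all arrays.

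**Figure D3:**
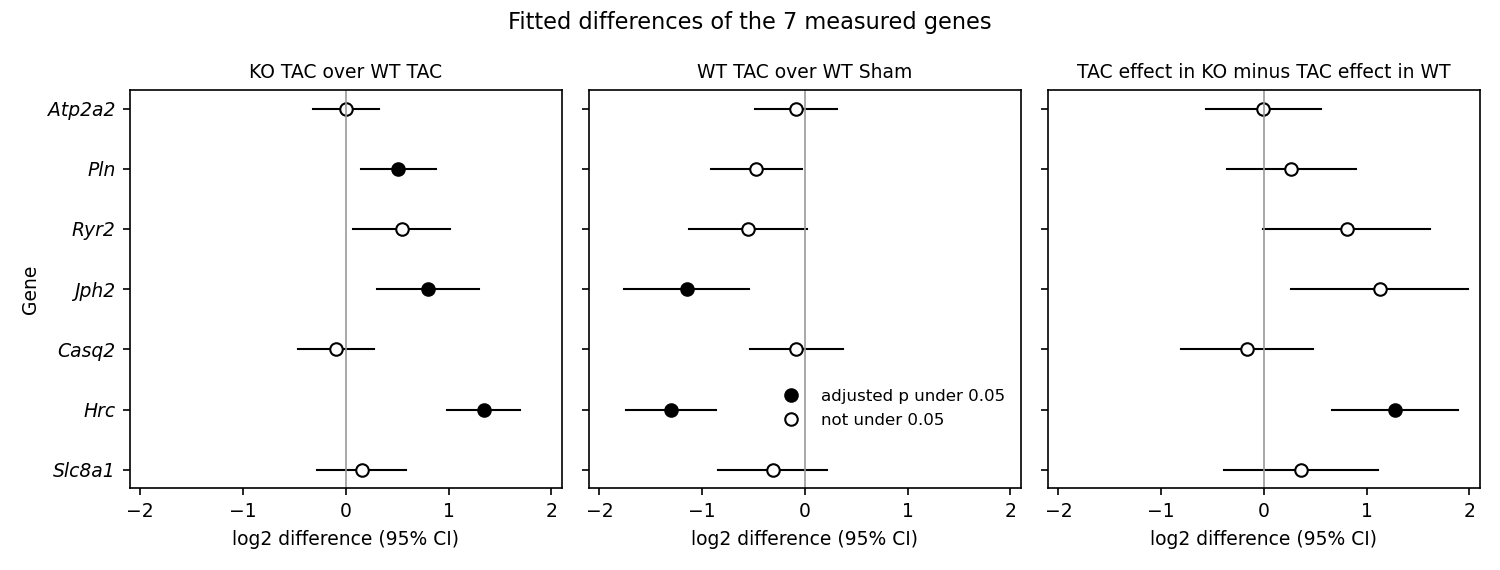
Log2 differences of the 7 measured genes (y axis) with 95% confidence intervals (x axis), for KO TAC over WT TAC, WT TAC over WT Sham, and the difference of the TAC effects (KO less WT). Filled points have a limma adjusted p under 0.05: Hrc in all 3 panels, Jph2 in the first and second, and Pln in the first.

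In wild type, TAC against sham gave 2 lower members of 7, Hrc and Jph2, and 0 higher. Over all genes 31.1% were called in this comparison and 15.8% were called lower. The point estimates of all 7 members were below 0, with a median of -0.47 against -0.07 over all genes. Atp2a2 differed by -0.08 ± 0.17, Casq2 by -0.08 ± 0.19 and Slc8a1 by -0.31 ± 0.22, and none of these passed (limma adjusted p = 0.728, 0.775 and 0.325 in that order). The Atp2a2 value is that of its brightest probe. In the fit over all probes, WT TAC differed from WT Sham by -0.31 ± 0.19 at ILMN_1239742 and by -0.52 ± 0.19 at ILMN_2450031. Neither was called. This comparison and that of KO TAC with WT TAC share both WT TAC arrays, so the same arrays enter both sets of values with opposite sign. A sham group is 1 array whose spread was taken from the TAC pairs.

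In Kdm3a-KO, TAC against sham called no member (0 of 7, also 0 of 7 at an unadjusted p under 0.05 in limma), and 0% of all genes, 254 of which had an unadjusted p under 0.05. The differences ran from -0.25 for Casq2 to 0.25 for Ryr2. For Hrc the value was -0.03 ± 0.18 with a 95% confidence interval of -0.46 to 0.41, and for Jph2 it was -0.02 ± 0.25 with an interval of -0.63 to 0.59. An adjusted p over 0.05 against 1 sham array does not show that these genes were unchanged.

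Between sham hearts, KO Sham against WT Sham called no member (0 of 7, and 0 of 7 at an unadjusted p under 0.05 in limma), where 0.0622% of all genes were called. Of all 9649 genes, 769 had an unadjusted p under 0.05 in limma. The widest member differences were -0.33 ± 0.29 for Jph2, -0.26 ± 0.28 for Ryr2 and 0.25 ± 0.21 for Pln. Hrc differed by 0.07 ± 0.21.

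The test of whether TAC acted differently in the genotypes (the TAC effect in KO less that in WT) called 1 member of 7. Over all genes 14% were called in either direction and 5.62% higher. Hrc differed by 1.28 ± 0.26 (limma adjusted p = 0.0241), and the call was lost without WT TAC replicate 2 (limma adjusted p = 0.0792). Jph2 gave 1.13 ± 0.36 (limma adjusted p = 0.0849) and Ryr2 0.80 ± 0.34 (0.161), neither of which passed. Pln gave 0.27 ± 0.26 (limma adjusted p = 0.527), so its higher level in KO TAC than in WT TAC was not shown to be a different response to TAC.

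Across all 13 probes, 5 were called higher in KO TAC than in WT TAC and 0 lower, where 38.5% of all 16691 probes were called and 20.5% were called higher. These 5 belonged to Hrc, Jph2, Pln, Atp2a2 and Ryr2, and for Atp2a2 and Ryr2 the called probe was not the brightest.

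Marker sums of several other cell types also set the WT TAC arrays apart. The marker calls between KO TAC and WT TAC are read against all 9649 genes, of which 41% were called, 2075 higher and 1882 lower. Neutrophil markers summed to 762 to 1053 in KO TAC, 1086 in KO Sham, 7186 to 11861 in WT TAC and 899.8 in WT Sham. All 4 measured neutrophil markers were lower in the KO TAC arrays than in WT TAC, and Mmp8 was below background on all arrays. Fibroblast markers summed to 22747 to 24473 in KO TAC, 23738 in KO Sham, 34673 to 35891 in WT TAC and 21014 in WT Sham, with 6 of 10 lower in KO TAC. Macrophage markers summed to 6876 to 8453 in KO TAC, 8031 in KO Sham, 10857 to 11560.0 in WT TAC and 5714 in WT Sham, with 2 of 10 lower and 1 higher. Endothelial markers summed to 18031 to 18532 in KO TAC, 18445 in KO Sham, 21674 to 23274 in WT TAC and 16218 in WT Sham, with 3 of 9 higher and 3 lower.

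Smooth muscle and pericyte markers summed to 11027 to 14105 in KO TAC, 8936 in KO Sham, 10775 to 13431 in WT TAC and 9612 in WT Sham. Atrial markers summed to 1795 to 1893 in KO TAC, 1932 in KO Sham, 3223 to 3637 in WT TAC and 2111 in WT Sham, and 2 of the 4 measured were higher and 2 lower in KO TAC. Adipocyte markers summed to 2071 to 2092 in KO TAC, 2141 in KO Sham, 2721 to 2959 in WT TAC and 2204 in WT Sham, with Adipoq, Plin1, Retn and Ucp1 below background on all arrays. Skeletal muscle markers summed to 15077 to 16143 in KO TAC, 16228 in KO Sham, 6126 to 7797 in WT TAC and 15171 in WT Sham, a list that includes Ckm, which heart muscle also expresses. Erythroid markers did not separate the WT TAC arrays from the others by their sums, although 2 of 4 were lower in KO TAC. Of 6 lymphocyte markers with a probe, 5 were below background on all arrays, so their sum could not tell groups apart.

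The tissue label was matched by its markers, all 9 of which were above background. Cardiomyocyte markers summed to 221803 to 225601 in KO TAC, 220918 in KO Sham, 221637 to 225041 in WT TAC and 228812 in WT Sham. Of 9 measured, Tnni3 was higher in KO TAC than in WT TAC and Mybpc3 lower, where 41% of all genes were called. With arrays scaled to these 9 markers, Hrc, Jph2 and Pln stayed called and Ryr2 passed as well (limma adjusted p = 0.0423). Several of these markers lie in the range where bright probes recorded small differences. The part of the cell type shifts in the member differences was not tested.

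The related genes were read from 7 lists of 85 genes, of which 75 had a probe with 1 gene and 67 were tested. Between KO TAC and WT TAC, 15 were higher and 11 lower, with a median of -0.02 against 0.04 over all genes. The share called, 26 of 67, can be read against the 41% of all genes, and the calls by list are read against the same share (21.5% of all genes were called higher). The calls were 14 without WT TAC replicate 1 and 10 without WT TAC replicate 2, where those over all 9649 genes were 2639 and 2110 in that order, against 3957 with all arrays. In WT TAC against WT Sham 7 were higher and 10 lower, so 17 of 67 were called, against 31.1% of all genes. These were 10 without WT TAC replicate 1 and 5 without WT TAC replicate 2, where those over all genes were 1994 and 1427 in that order, against 2998. In KO TAC against KO Sham and in KO Sham against WT Sham none of the 67 was called by limma, where 5 and 3 had an unadjusted p under 0.05. Over all 9649 genes these numbers were 254 and 769 in that order.

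**Figure D4:**
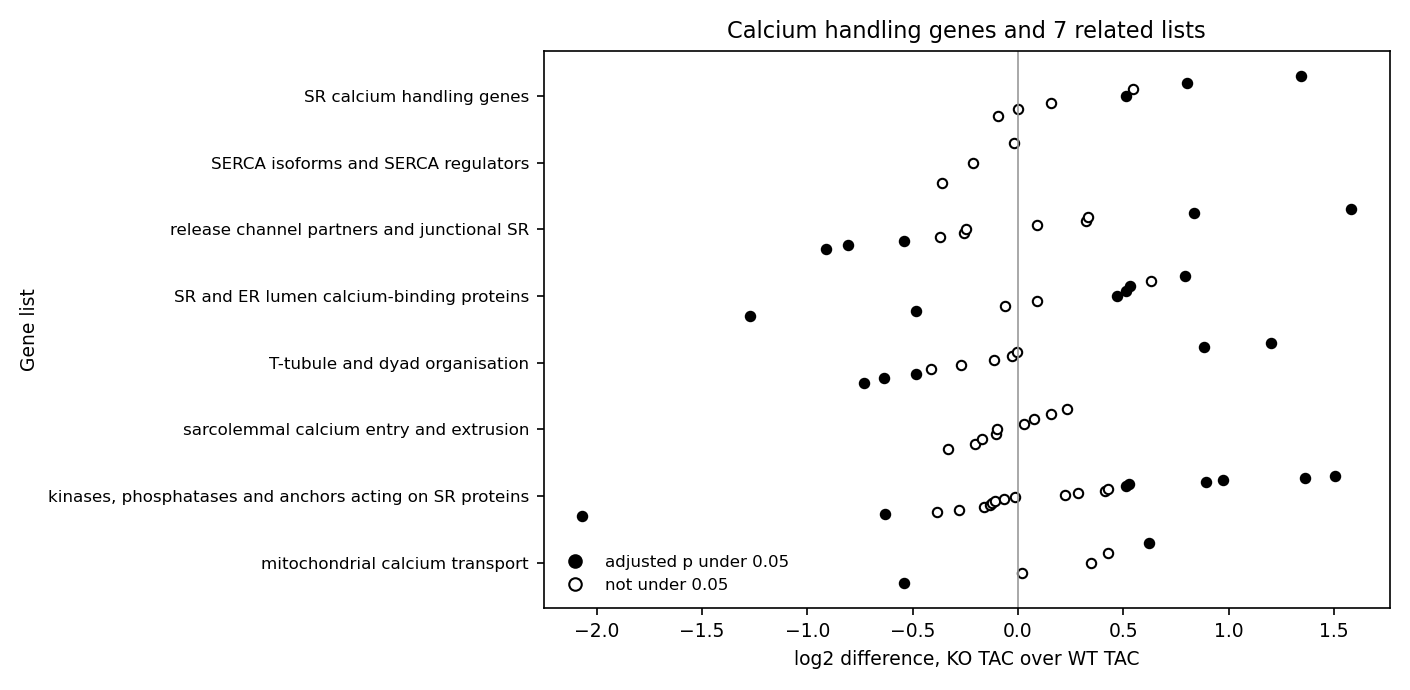
Log2 difference, KO TAC over WT TAC (x axis), of every tested gene of the calcium handling list and the 7 related lists (y axis), sorted within each list. Filled points have a limma adjusted p under 0.05; the SERCA and sarcolemmal lists have none, and the other 5 related lists hold calls in both directions.

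Among partners of the release channel 2 of 11 were higher and 3 lower in KO TAC, a share close to that over all genes. Asph, the locus of junctin, read 1702 and 1163 in KO TAC, 1345 in KO Sham, 633 and 460.3 in WT TAC and 1259 in WT Sham, a difference of 1.58 ± 0.26 (limma adjusted p = 0.00426). Its 9 probes ranged from -0.53 to 1.58, and the locus makes several proteins. Tmem38a, a potassium-permeable channel of the SR that balances charge during release, read 3185 and 3986 in KO TAC, against 2315 and 1798 in WT TAC (0.84 ± 0.19). Of the inositol trisphosphate receptors, a second family of calcium release channels, Itpr2 was lower at -0.81 ± 0.15 and Itpr1 was not tested. Itpr3 was also called lower, with KO TAC at 144 and 151, at or below background, and WT TAC at 185 and 187 (limma adjusted p = 0.00374). No fold is given so close to background. Only the WT TAC arrays were above it, so Itpr3 passed the filter only through the group where it is high. Its call stays in the counts and is not read as a result. Fkbp1a, which binds the release channel, was lower at -0.54 ± 0.15.

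Between WT TAC and WT Sham, this list held 3 higher and 3 lower genes. Asph (-1.41 ± 0.32), Tmem38a (-0.78 ± 0.23) and Jph1, a further junctophilin (-0.74 ± 0.22), were lower. Itpr2 (0.76 ± 0.18), Fkbp1a (0.74 ± 0.18) and Itpr3 were higher, Itpr3 with WT Sham at 149, below background. As above, the Itpr3 call is not read as a result.

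Of 9 luminal calcium-binding proteins tested, 4 were higher and 2 lower in KO TAC. Sarcalumenin (Srl), an SR glycoprotein, read 6496 and 5776 in KO TAC, 5437 in KO Sham, 4669 and 2754 in WT TAC and 6381 in WT Sham, a difference of 0.79 ± 0.26 (limma adjusted p = 0.0471). Pdia6 (0.53 ± 0.14) and Hspa5 (0.51 ± 0.14), chaperones of the endoplasmic reticulum, were also higher. Pdia6 read 266 and 269 in KO TAC and 224 and 211 in WT TAC, and Hspa5 258 and 268 against 212 and 219. The 2 Pdia6 probes disagreed in sign, at -0.14 and 0.53. Rcn3, a secretory-pathway calcium-binding protein, was lower at -1.27 ± 0.21, as was the calcium-binding protein Calu at -0.48 ± 0.13. Rcn3 read 170 and 199 in KO TAC, 190 in KO Sham, 275 and 318 in WT TAC and 170 in WT Sham. The KO TAC and sham readings lie close to background, so the size for Rcn3 is uncertain. The 4 Calu probes ranged from -0.64 to 0.07. In WT TAC against WT Sham, Rcn3 was higher by 1.52 ± 0.26, with the same limit on its size, and Hspa5 lower by 0.64 ± 0.17.

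Of 10 genes of T-tubule and dyad organisation, 2 were higher and 3 lower in KO TAC. Ankyrin-B (Ank2), which positions the exchanger at the membrane, read 949 and 959.5 in KO TAC, 851 in KO Sham, 612 and 372 in WT TAC and 894 in WT Sham (1.20 ± 0.28, limma adjusted p = 0.0164). Cmya5 (myospryn), a muscle scaffold protein, was higher by 0.88 ± 0.24. The membrane scaffold Ahnak (-0.73 ± 0.14) and Cav3, the muscle caveolin (-0.49 ± 0.14), were lower. The junctional membrane protein Sypl2 was also called lower (limma adjusted p = 0.0309). It read 166 and 151 in KO TAC, the second below background, and 195 and 182 in WT TAC, so its size is not given. In WT TAC against WT Sham, Cmya5 was lower by 1.41 ± 0.29, and Ahnak (0.63 ± 0.17) and the titin cap protein Tcap (0.55 ± 0.17) were higher.

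Kinases, phosphatases and anchors that act on SR proteins gave 6 higher and 2 lower of 20 in KO TAC. Camk2b, a calcium/calmodulin-dependent kinase subunit, read 406 and 353 in KO TAC, 374 in KO Sham, 208 and 193 in WT TAC and 396 in WT Sham. It was higher by 1.50 ± 0.16 (limma adjusted p = 0.000915), and Camk2a by 1.36 ± 0.13 (0.000588). Camk2a read 288 and 293 in KO TAC. In WT TAC it read 177 and 176, close to background, so its size is uncertain. Pde3a, a cyclic AMP phosphodiesterase, was called higher in KO TAC, where it read 167 and 158, against 134 and 132 in WT TAC, both below background. Both sham arrays were also below background, so Pde3a passed the filter only through the group where it is high. Its call stays in the counts and is not read as a result. Pde4b, another such enzyme, read 239 and 233 in KO TAC, 196 in KO Sham, 672 and 644 in WT TAC and 204 in WT Sham, and was lower by 2.07 ± 0.13 (limma adjusted p = 0.000150). Prkar1a, a regulatory subunit of protein kinase A, was lower at -0.63 ± 0.14.

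In WT TAC against WT Sham the kinase list held 1 higher gene, Pde4b (2.46 ± 0.16), and 4 lower, among them Camk2b (-1.59 ± 0.20), Camk2a (-1.49 ± 0.16) and the phosphatase inhibitor Ppp1r1a (-0.93 ± 0.26). Camk2a (177 and 176) and Ppp1r1a (179 and 179) read close to background in WT TAC, so their sizes are uncertain. In the difference of TAC effects (KO less WT), 3 of 67 related genes were called higher and 2 lower, against 14% of all genes called in either direction. Camk2a (1.65 ± 0.23), Camk2b (1.62 ± 0.28) and Hspa5 (1.35 ± 0.23) were higher, and Pde4b (-1.94 ± 0.23) and Rcn3 (-1.64 ± 0.37) lower. For Hspa5 the single sham arrays, at 202 in KO Sham and 279 in WT Sham, make up part of this difference. Camk2a in WT TAC and Rcn3 in KO TAC and in both sham groups read close to background, so their sizes are uncertain. These 5 calls were 2 without WT TAC replicate 2 and 8 without KO TAC replicate 2, where those over all genes were 480 and 1644 in that order, against 1350.

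The remaining lists cover the SERCA pumps, sarcolemmal calcium transport and mitochondrial calcium transport. None of 3 SERCA isoforms and regulators tested passed between KO TAC and WT TAC, with Atp2a3 at -0.36 (limma adjusted p = 0.0854), the only one with an unadjusted p under 0.05. None of 9 genes of sarcolemmal calcium entry and extrusion passed in limma, 0 of them at an unadjusted p under 0.05, and their differences ran from -0.33 for Atp2b4 to 0.23 for Fxyd1. Of all 9649 genes, 4840 had an unadjusted p under 0.05 in limma between KO TAC and WT TAC. Of 5 mitochondrial calcium transport genes, Slc8b1, the mitochondrial sodium-calcium exchanger, was higher in KO TAC by 0.62 ± 0.14 and lower in WT TAC than in WT Sham by 0.72 ± 0.17. Micu2, a regulator of the mitochondrial uniporter, was lower in KO TAC at -0.54 ± 0.16.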

How the data were processed

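Left ventricle RNA of 6 samples was hybridised to Illumina mouse bead arrays. The authors summarised the scans in GenomeStudio 2011.1, per the labels' processing notes, and what they deposited is a linear intensity for each probe. Once sorted, the values of any 2 arrays differed by no more than 0.838%, so these intensities had been quantile normalized before deposit; any background subtraction and the scanner settings are not given in the sources used here. A second table held 6 signal columns whose names match no sample, and it was not used.

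Background was corrected by normexp (limma nec, robust, offset 16) fitted to 1545 receptor probes, followed by log2 and quantile normalization. This replaced the planned use of detection p-values, which could not be tied to samples. Probes above background on at least 2 arrays were kept (16691, of which 2244 did not name 1 gene), and the brightest kept probe stood for each of 9649 genes. The annotation gave a single gene symbol to 34885 of 45281 probes, several to 18 and none to 10378. Each array had 14961 to 16015 probes (33.0% to 35.4%) above background. Precision is limited by the number of arrays.

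A limma model (version 3.58.1, R 4.3.3) had a term for each group (2 residual and 4.62 prior degrees of freedom), with 5 comparisons, Benjamini-Hochberg adjustment over all genes and calls at 0.05. Only the TAC pairs inform the spread, and a sham array is assumed to vary like them. An exact permutation test of 2 against 2 arrays has 0.333 as its smallest p, so the tests rest on the model. The code of the fit was run on simulated arrays with independent noise and few changed genes. That checks the code and does not bear on whether the p-values hold for these arrays. Alternatives changed the background, scaling, filter, probe choice, variance model, replicates and test. The members and the lists were chosen with earlier results of these data known. All 10 members are named, and from each related list up to 3 called genes in each direction with the widest difference in the 2 comparisons with WT TAC. Cell type lists were read as sums; lymphocyte markers summed to 771 to 816 and erythroid markers to 34419 to 41752 over the 6 arrays, and endothelial, smooth muscle, adipocyte and skeletal muscle lists were summed likewise.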

Additional observations from a re-analysis of the deposited data

Results flagged for a closer look

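Hrc was singled out because its response to TAC differed between genotypes by a test of the difference itself. The TAC effect was -0.03 in KO (17466 and 17715 in KO TAC, 17904 in KO Sham) and -1.30 in WT (7623 and 6403 in WT TAC, 17064 in WT Sham), a difference of 1.28 on the log2 scale (limma adjusted p = 0.0241). Each effect rests on 1 sham array. No explanation was tested.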

How the results depend on the processing

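KO TAC against KO Sham and KO Sham against WT Sham kept 0 members called in each of 16 alternatives. Between KO TAC and WT TAC the 3 calls became 1 (of 10 members) with no filter on dim probes. All-gene calls were then 3398 of 19057, against 3957 of 9649. The 3 calls became 0 with the methods' t-test after Benjamini-Hochberg adjustment (1 member unadjusted). That t-test called 1 of all 9649 genes (3373 unadjusted), so the loss of calls is not particular to the members. Without WT TAC replicate 2 or without KO TAC replicate 2 only 1 call was left. WT TAC against WT Sham gave 2 calls, 1 with no filter, 3 (Pln added) without background correction or with a variance trend and robust prior, and 1 to 2 on leaving out replicates (1 without WT TAC replicate 2). The difference of TAC effects gave 1 call, 0 with no filter, 2 with a variance trend and robust prior, and 0 to 2 on leaving out replicates (0 without WT TAC replicate 2, 2 without WT TAC replicate 1). With the gene represented by its brightest probe at or under a mean of 20000, an alternative chosen after seeing the data, 4 members were called between KO TAC and WT TAC, with Atp2a2 added at 0.83 (limma adjusted p = 0.00576).

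Where a sign changed, the difference passed neither in the reported fit nor in the setting that changed its sign. With the mean of a gene's probes, KO TAC minus KO Sham became 0.0090 for Atp2a2 and 0.12 for Jph2, and the Atp2a2 difference of TAC effects became 0.32, or 0.51 with the dimmer probe. On leaving out replicates, KO TAC against WT TAC ran from -0.25 to 0.059 for Casq2, -0.058 to 0.059 for Atp2a2 and -0.047 to 0.36 for Slc8a1. Casq2 in WT TAC against WT Sham ran from -0.23 to 0.071, the Atp2a2 difference of TAC effects from -0.065 to 0.052, and KO TAC against KO Sham from -0.055 to 0.015 for Jph2 and -0.15 to 0.25 for Slc8a1. The cause was not tested.

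With no filter, Jph2 (limma adjusted p = 0.0647), Pln (0.0587) and the Hrc difference of TAC effects (0.0560) no longer passed. Hrc stayed called in 17 of 18 alternatives between KO TAC and WT TAC, the exception being the t-test (adjusted p = 0.0839), and in 16 of 16 in WT TAC against WT Sham. Jph2 and Pln between KO TAC and WT TAC each stayed called in 13 of 18, and Ryr2 passed in 6 of 18. The 18 include a fit of the 4 TAC arrays alone. A single sham array adds nothing to the spread, so that fit repeats the reported one (3957 genes called in both) and is no separate support. The t-test called 1 of all 9649 genes. All-gene calls with no filter fell to 2258 of 19057 in WT TAC against WT Sham, from 2998 of 9649 in the reported fit. In the difference of TAC effects they fell to 604 of 19057, from 1350 of 9649. TAC arrays of the same replicate number deviated with a correlation of 0.05 over 9649 genes, so the numbers were not treated as pairs. With a replicate block the counts stayed 3, 2, 0, 0 and 1.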
